A study of Mus musculus with 32 samples.

Results

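The cytosolic ribosome is built from ribosomal RNA and one copy each of most ribosomal proteins. The genes described here are the protein-coding rows of the count table whose symbol is Rpl or Rps and a number (with an optional a, x, l or l1), together with Rplp0, Rplp1, Rplp2 and Rpsa. The rule used names only, not values, and found 81 of the table's 30644 genes: 43 of the large subunit, 30 of the small subunit, 3 of the stalk and 5 paralogs (Rpl3l, Rpl7l1, Rpl22l1, Rpl39l and Rps27l). It leaves out, among others, Rps3a1, Fau, Rack1, Rpl36al and Rps27rt, which are ribosome components or close relatives under other names. RNA was sequenced from multipotent progenitors of C57BL/6 mouse bone marrow, sorted into the subsets MPP1 to MPP4. The mice were wild type, or carried 1 copy (+/1013) or 2 copies (1013/1013) of the Cxcr4 1013 allele, a knock-in with a truncated, gain-of-function receptor that models human WHIM syndrome. It is a change of the germ line, so every cell of these mice carried it, the marrow's other cells included. Each subset had 3 wild-type, 3 +/1013 and 2 1013/1013 libraries, each from a pool of 3000 cells, which gives 32 libraries in 12 groups.

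Ribosomal proteins are made in near-equal numbers, and a shortage of some of them impairs red cell formation: loss of 1 copy of RPS19, RPL5 or RPL11 causes Diamond-Blackfan anemia in humans, and RPS14 is lost in the 5q- syndrome. Their mRNAs begin with a cytosine and a run of pyrimidines, the 5′ terminal oligopyrimidine tract, through which mTOR and the RNA-binding protein LARP1 control their translation. Stem cells are known for low protein synthesis, which rises as progenitors leave quiescence. The counts measured here are mRNA levels and hold no reading of translation.

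Library totals ran from 13016038 to 37050983 counts. The labels' library numbers set 8 libraries apart, those whose number can be divided by 3. Fos, an immediate-early gene that handling can induce, had 64.6 to 949 CPM (counts scaled to a TMM-adjusted library total of 1e6) in these 8 and 1381 to 9321 in the other 24. The summed share of 8 neutrophil genes reached 0.393% of counts against at most 0.00652% in the others. In MPP4 1013/1013 2, which is 1 of the 8 libraries, that share was 0.00302%, within the range of the others. None of the 8 is an MPP1 library, so they stand only on one side of every comparison with MPP1. The markers followed the labels in part: all 5 lymphoid-primed genes were called higher in MPP4 than in MPP1 and 4 of 5 stem cell genes lower, 3 of 4 granulocyte-monocyte genes were higher in MPP3, and none of the 3 megakaryocyte genes was called in MPP2. Cxcr4 itself differed by 0.99 ± 0.37 (log2, SE) between 1013/1013 and wild type over the 4 subsets, which did not pass the threshold (edgeR's quasi-likelihood test, adjusted p = 0.177).

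The starts of these genes are shown for the members that the results turn on, from 30 bases before the annotated start to 20 bases from it on, with the longest run of a C and at least 5 pyrimidines in capitals. Sequences are RefSeq's, on GRCm38.p6, written 5′ to 3′ on the gene's own strand. The first set is Rpsa, Rps3, Rps13 and Rpl15, which were called higher in several subsets.
Rpsa (chr9:120127736-120127785, plus strand): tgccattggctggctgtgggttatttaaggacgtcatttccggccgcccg
Rps3 (chr7:99483690-99483739, minus strand): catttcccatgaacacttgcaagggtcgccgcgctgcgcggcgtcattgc
Rps13 (chr7:116334171-116334220, minus strand): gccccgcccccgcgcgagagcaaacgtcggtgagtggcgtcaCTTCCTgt
Rpl15 (chr14:18270967-18271016, minus strand): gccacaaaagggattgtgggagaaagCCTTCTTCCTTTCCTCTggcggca
The second set is Rps6, the substrate of the mTOR-driven S6 kinases, and Rplp2 of the stalk, which show the tract across the annotated start.
Rps6 (chr4:86857348-86857397, minus strand): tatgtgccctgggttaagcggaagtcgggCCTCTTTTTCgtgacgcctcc
Rplp2 (chr7:141447621-141447670, plus strand): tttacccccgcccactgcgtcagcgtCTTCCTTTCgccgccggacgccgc
The third set is Rpl4 and Rpl7l1, whose levels did not go with those of the others, and the paralog Rpl22l1, which had the highest mean difference of 1013/1013 from wild type among the genes with at least 1 CPM, without being called.
Rpl4 (chr9:64173357-64173406, plus strand): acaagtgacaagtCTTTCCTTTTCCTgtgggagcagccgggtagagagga
Rpl7l1 (chr17:46782637-46782686, minus strand): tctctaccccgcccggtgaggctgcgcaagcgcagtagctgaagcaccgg
Rpl22l1 (chr3:28805478-28805527, plus strand): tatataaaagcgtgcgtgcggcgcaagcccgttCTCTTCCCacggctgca
The paralog Rpl7l1 has no such run in this window, and in Rpl4 the run lies before the annotated start. Rpsa and Rps3 have none in the window either. The genes shown were picked by hand, so they cannot tell whether such a run goes with being called. The starts used in these cells were not measured.

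A promoter row was found for 61 of the 81 genes. Within 30 bases either side of the start, a C followed by at least 5 pyrimidines stood on the gene's strand in 46 of them (75.4%), against 43.9% of the 17492 protein-coding genes in the same table. A C at the start itself, followed by at least 4 pyrimidines, was found in 13 (21.3%) against 2.67%. In the whole window, from 250 bases before to 50 after the start and on both strands, CCGGAAG was found in 25 (41%, background 12.9%), AAGATGGC in 6 (9.84%, background 3.57%) and TATAAA in 7 (11.5%, background 14.8%). The reverse strand of CCGGAAG holds 5 pyrimidines and can overlap the tract. These matches describe letters only.

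The level of a gene is given per kilobase of the deposited median transcript length (CPM per kb), as a mean over the 12 group means. The stalk protein gene Rplp0, often used as a reference gene, was highest at 3741 CPM per kb. Rps3, a protein of the mRNA entry channel, followed with 2361, then Rps9 with 2101 and Rps14 with 1920. The lowest genes with at least 1 CPM were Rpl35 (6.08 CPM per kb), Rpl13a (7.34), Rpl22l1 (21.4), Rpl30 (40.9) and Rps29 (47). These levels span far more than the equal numbers of the proteins in a ribosome. Small subunit genes had a median of 384 CPM per kb and large subunit genes 169.

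Rpl23a, Rpl24, Rpl39l and Rpl3l had a mean under 1 CPM, 75 of the genes had at least 10 CPM and 54 at least 100. Rpl3l, known from mouse muscle, and Rpl39l, known from mouse testis, were at 0 in many libraries; Rpl23a and Rpl24 encode core proteins of every ribosome. Of the 50-base windows in the longest coding transcript, 85.7% of those of Rpl23a and 81.7% of those of Rpl24 were shared with annotated transcripts of other genes. The median over the 81 genes was 47.4%, and 36 genes shared at least 50%. Genes that shared at least 50% had a median of 224 CPM per kb and the 45 others 313, and the Spearman correlation across the 81 genes between level and shared share was -0.23. How HTSeq was set for reads with several matches is not given in the sources used here, so low levels of such genes, and differences between genes in level, are uncertain. Rpl23a was the only gene whose named pseudogene rows (4.02 CPM summed) exceeded it (0.76 CPM). The order of the genes was nearly the same everywhere: between any pair of the 12 groups the Spearman correlation across the 81 genes was 0.97 to 0.998.

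In the sum, the 81 genes took 1.77% to 4.77% of a library's counts. In wild type the share was 2.38%, 2.55% and 2% in the MPP1 libraries, and 1.77%, 2.34% and 3.55% in MPP2. It was 2.69%, 2.92% and 3.21% in MPP3, and 2.26%, 2.52% and 2.38% in MPP4. Every wild-type MPP3 library was above every wild-type MPP1 library, while MPP2 overlapped MPP1 from both sides and MPP4 overlapped it as well. In +/1013 the share was 3.33%, 2.27% and 2.19% in MPP1, 2.74%, 2.45% and 4.58% in MPP2, 3.41%, 2.11% and 3.58% in MPP3, and 3.08%, 2.35% and 3.26% in MPP4. These libraries overlapped wild type in every subset. In 1013/1013 the share was 2.27% and 2.04% in MPP1, 3.78% and 3.58% in MPP2, 2.37% and 4.77% in MPP3, and 3.31% and 4.27% in MPP4. Both 1013/1013 libraries were above all 3 wild-type libraries in MPP2 and in MPP4, but not in MPP1 or MPP3, where the pair of MPP3 libraries lay apart by more than any other pair of one group.

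**Figure D1:**
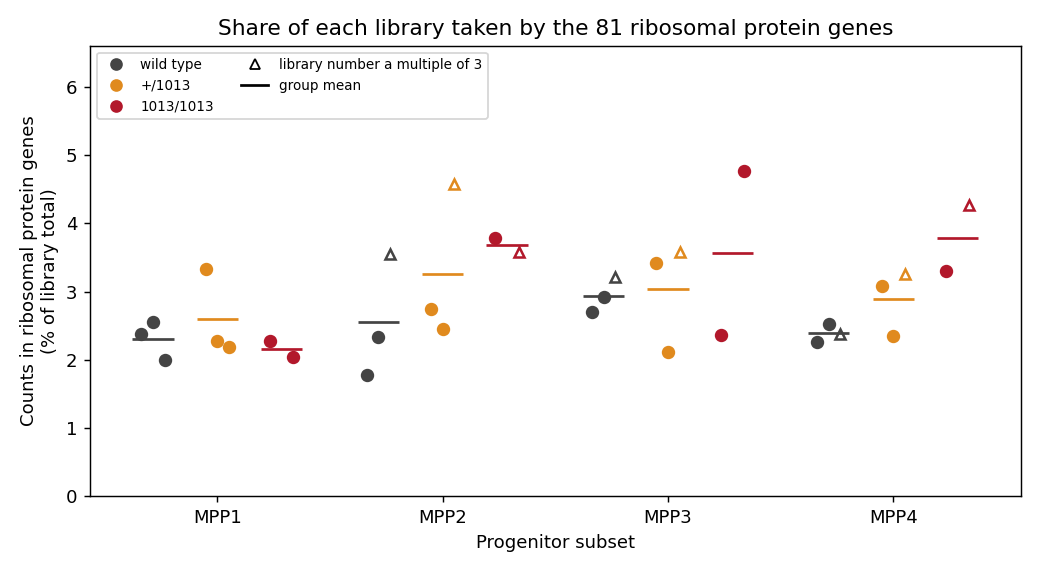
Share of each library's counts in the 81 ribosomal protein genes, in percent (y axis), by subset (x axis) and genotype (colour), with 1 point per library and the group mean as a line. Open triangles are the 8 libraries whose number can be divided by 3. The MPP4 1013/1013 libraries (3.31% and 4.27%) lie above the MPP4 wild-type libraries (2.26% to 2.52%).

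The mean share was 2.55% ± 0.494 (SD, n = 12) in wild type, 2.95% ± 0.734 (n = 12) in +/1013 and 3.3% ± 0.993 (n = 8) in 1013/1013. Without the 8 libraries it was 2.38% ± 0.347 (n = 9), 2.66% ± 0.502 (n = 9) and 3.09% ± 1.06 (n = 6). The 8 libraries had a mean of 3.55% and the other 24 had 2.66%. Mitochondrially encoded transcripts moved the same way, with 0.844% ± 0.431, 0.96% ± 0.393 and 1.43% ± 0.369 of counts in the 3 genotypes, and their part in the result was not tested. In bulk samples, fewer cells of a type and less RNA per cell cannot be told apart.

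The genes went up and down together from library to library. Within groups, the median SD over the 81 genes was 0.48 on the log2(CPM + 0.5) scale. It was 0.19 after the median deviation of the 81 genes in the library (the library shift) had been subtracted, and 76 of the 81 had a smaller SD afterwards. Among 8233 other genes with at least 10 CPM, the same subtraction raised the median SD from 0.53 to 0.73 and made it smaller in 11.2%. Since the shift is the median of these genes, a fall in their spread is built in to a degree; the values describe its size. Rpl26 followed the shift most closely, with an SD of 0.45 before and 0.07 after. The 5 genes that did not have a smaller SD were Rpl3, Rpl4, Rpl5, Rpl7l1 and Rpl24.

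**Figure D2:**
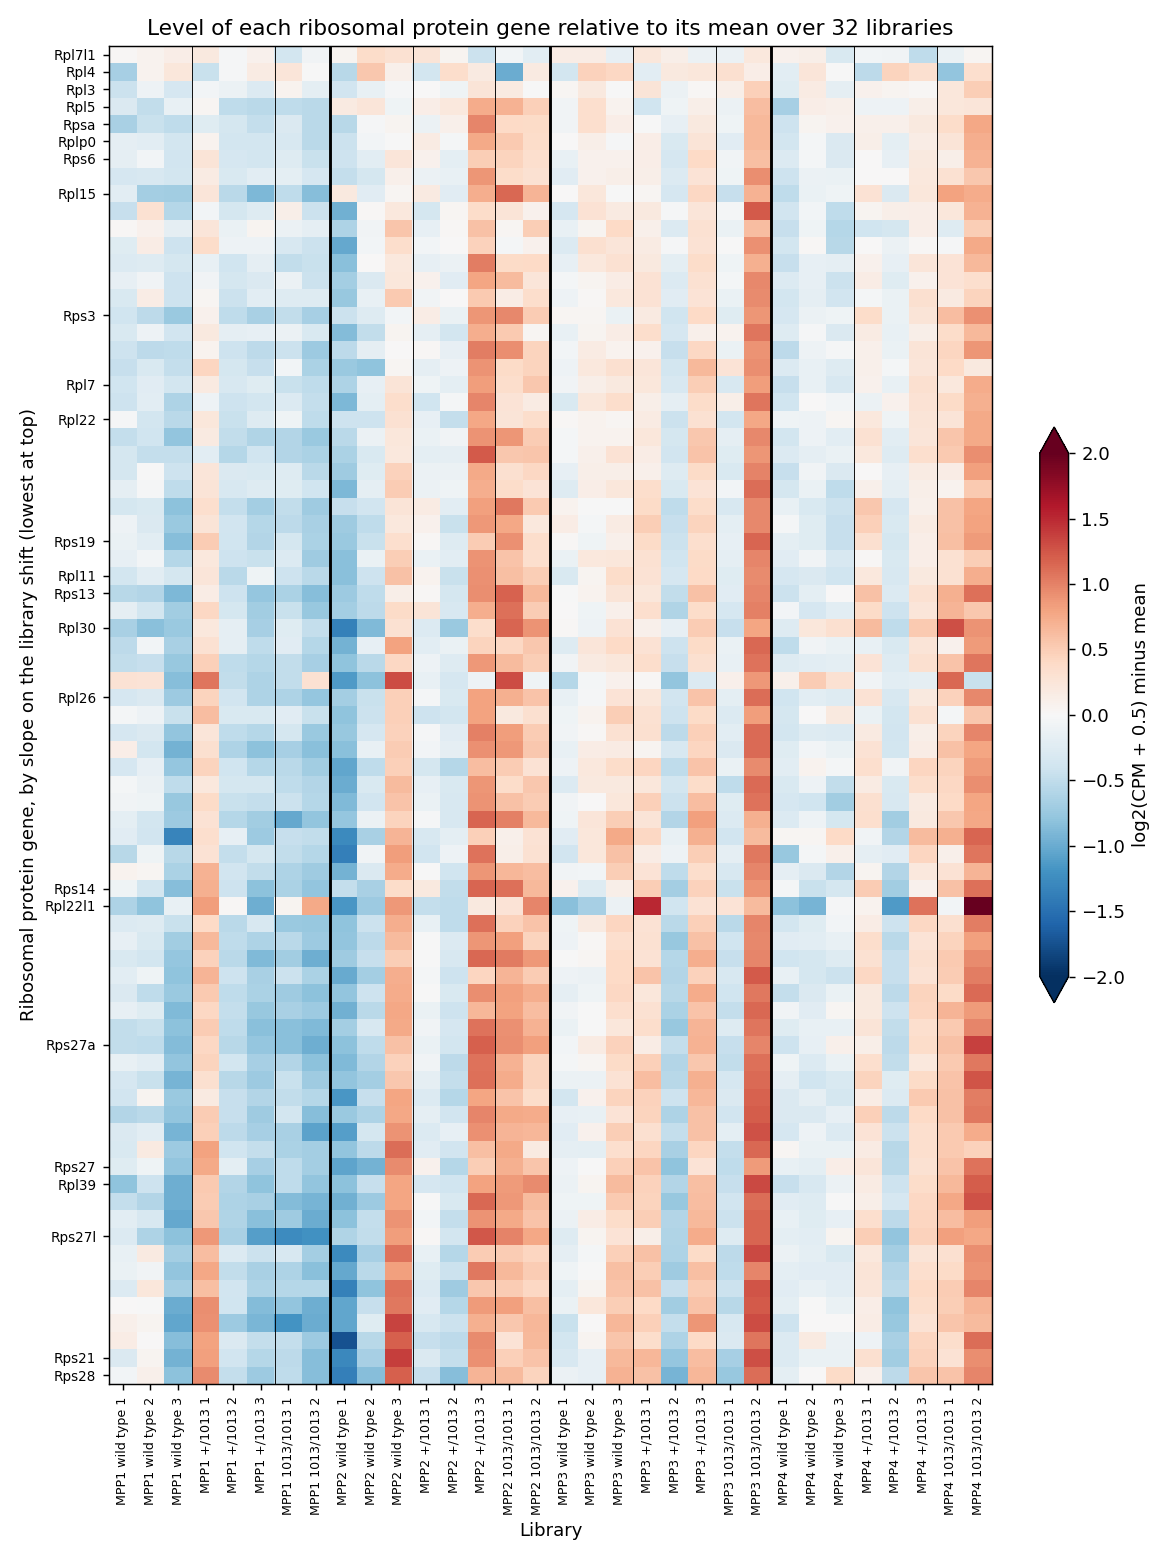
Log2(CPM + 0.5) of the 77 genes with at least 1 CPM minus the gene's mean over 32 libraries (colour), with genes in rows, ordered by their slope on the library shift and labelled for some of those described, and libraries in columns. Columns are red or blue through most rows, while Rpl7l1 and Rpl4 at the top do not share the pattern.

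The slope of each gene on the library shift gives how far it moved when the others moved by 1. It was -0.05 for Rpl7l1, -0.03 for Rpl4, 0.26 for Rpl3 and 0.27 for Rpl5, and rose to 1.69 for Rps21 and 1.7 for Rps28, both small proteins of the small subunit. Rpl3, Rpl4 and Rpl5 are large proteins of the large subunit, and Rpl5 joins Rpl11 and 5S ribosomal RNA in the particle that holds the p53 regulator MDM2. Rpl11 had a slope of 0.94, unlike its partner Rpl5. The slope went with the length of the transcript: across the 77 genes the Spearman correlation was -0.75, the median slope was 1.19 in the 39 shorter genes and 0.77 in the 38 longer ones. It also went with the mean level, with a correlation of -0.51. These genes share their libraries, and how far length, level or the amplification of short transcripts contributes was not tested.

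**Figure D3:**
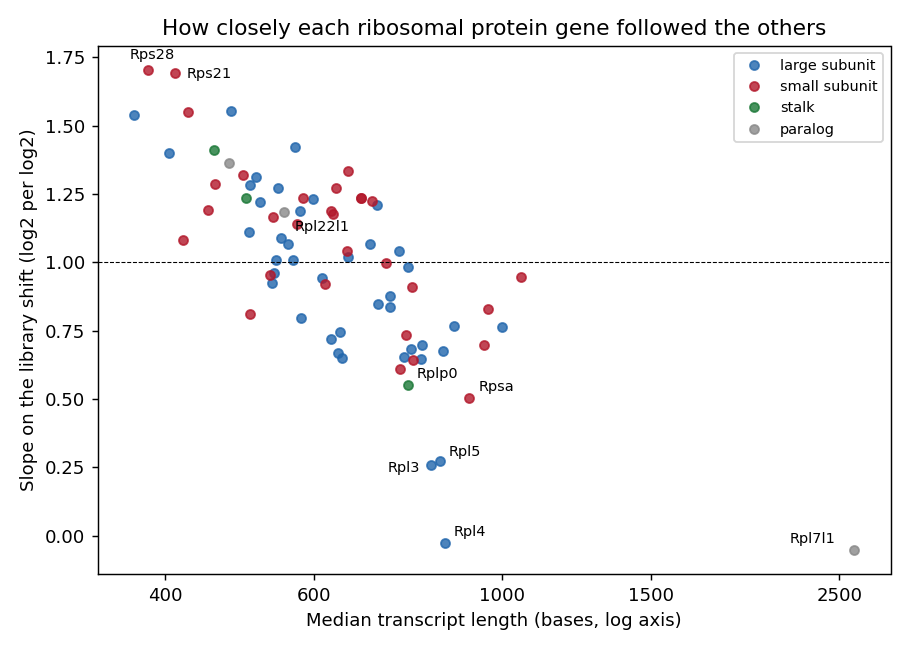
Slope of each of the 77 genes with at least 1 CPM on the library shift (y axis, log2 per log2) against its deposited median transcript length in bases (x axis, log scale), coloured by role; the dashed line is a slope of 1. Short genes such as Rps28 (1.7) lie at the top, and Rpl4 (-0.03) and Rpl7l1 (-0.05) at the bottom.

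Rps28 and Rpl4 lie at opposite ends of this range; Rps21, Rps28 and Rpl26 were chosen for description after their values were seen. Rps28, at the top, had 14, 20.2 and 85.4 CPM in the wild-type MPP2 libraries and 26.7, 20.2 and 59.3 in +/1013, and 57.4 and 50.6 in 1013/1013. Rpl4 had 625.2, 1341 and 989.6 CPM in the same wild-type libraries, 717, 1182 and 1048 in +/1013, and 464 and 1043 in 1013/1013. The third wild-type library was by far the highest for Rps28 and in the middle for Rpl4. Rpl7l1, whose yeast relative acts in ribosome assembly, stayed between 275 and 503 CPM in all 32 libraries, a range of 1.83-fold, against 6.1-fold for Rps28.

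The subsets were first compared in wild type, 3 libraries against 3. The median log2 difference of the 81 genes from MPP1 was 0.27 in MPP2, 0.45 in MPP3 and 0.16 in MPP4, while the median of all 18676 genes tested was 0, -0.01 and 0. No gene of the 81 was called in any of the 3 comparisons by edgeR, and none by DESeq2 or limma-voom, against 0, 0.102% and 0.76% of all genes called by edgeR. At an unadjusted p under 0.05 there were 0, 3 and 0 of them, against 4.2%, 8.15% and 8.75% of all genes. In 41 of the 81 genes every MPP3 library was above every MPP1 library (background 7.23%), in 1 every MPP2 library (background 4.02%), and in 14 every MPP4 library (background 8.53%). The median for MPP2 was -0.2 without MPP2 wild type 3, which is its only one of the 8 libraries.

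Averaged over the 3 genotypes, 8 libraries against 8, the genes lay higher in the other 3 subsets than in MPP1, the most stem cell-like of them by its markers. The median log2 difference was 0.54 in MPP2, 0.61 in MPP3 and 0.53 in MPP4, against -0.16, -0.08 and -0.15 for all genes tested. In wild type alone these medians were 0.27, 0.45 and 0.16, with 3 libraries against 3 and no gene of the 81 called. Set against wild type, the medians of +/1013 from MPP1 to MPP4 were 0.23, 0.31, 0.06 and 0.28. Those of 1013/1013 were -0.17, 0.63, 0.43 and 0.86. The mean over genotypes therefore mixes subset and genotype, and does not give the size of a wild-type difference. By edgeR's quasi-likelihood test with Benjamini-Hochberg adjustment, 15 of the 81 rose in MPP2 (18.5%, background 5.01% called higher), 4 in MPP3 (4.94%, background 2.36%) and 11 in MPP4 (13.6%, background 7.59%). None fell, where 1.72%, 0.75% and 7.12% of all genes were called lower. The 3 comparisons share the MPP1 libraries. Small subunit genes had medians of 0.69, 0.67 and 0.6 and large subunit genes 0.48, 0.54 and 0.42, with all 30 small subunit genes above 0 in each comparison. The calls hung on single libraries: without MPP1 +/1013 1 there were 30, 26 and 32 calls, and without MPP1 1013/1013 2 there were 3, 0 and 3. The share of all genes called higher moved too, to 6.95%, 4.05% and 9.18% without the former and to 1.86%, 0.831% and 4.14% without the latter. In MPP2 the count was 7 or 8 without MPP1 wild type 2 or 3 or MPP1 +/1013 2 or 3, 4 without MPP1 1013/1013 1 or MPP2 1013/1013 1, 7 without MPP2 wild type 3 or MPP2 +/1013 3, 23 without MPP2 wild type 1 and 27 without MPP2 +/1013 2. In MPP3 it was 0 or 1 without MPP1 wild type 2 or 3, MPP1 +/1013 2 or 3, MPP1 1013/1013 1, MPP3 wild type 2, MPP3 +/1013 3 or MPP3 1013/1013 2, and 2 without MPP3 +/1013 1. It was 7 without MPP3 +/1013 2, 10 without MPP2 +/1013 3 and 24 without MPP3 1013/1013 1. In MPP4 it was 5 to 7 without MPP1 +/1013 3, MPP1 1013/1013 1, MPP4 +/1013 1 or MPP4 1013/1013 2, 17 without MPP4 +/1013 2 and 24 without MPP2 +/1013 3. Without the 8 libraries the counts were 4, 1 and 4, with 3.08%, 1.25% and 4.67% of all genes called higher. Of the fits that left out 1 library, only those without MPP1 +/1013 1 or MPP1 1013/1013 2 have their share of all genes given here. That share moved with the count, so the other counts alone do not describe the 81 genes. The 8 neutrophil genes and 3 mature B cell genes all had fitted values above 0 in each comparison, with summed neutrophil shares of at most 0.00392% in MPP1, and their part in the result was not tested.

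**Figure D4:**
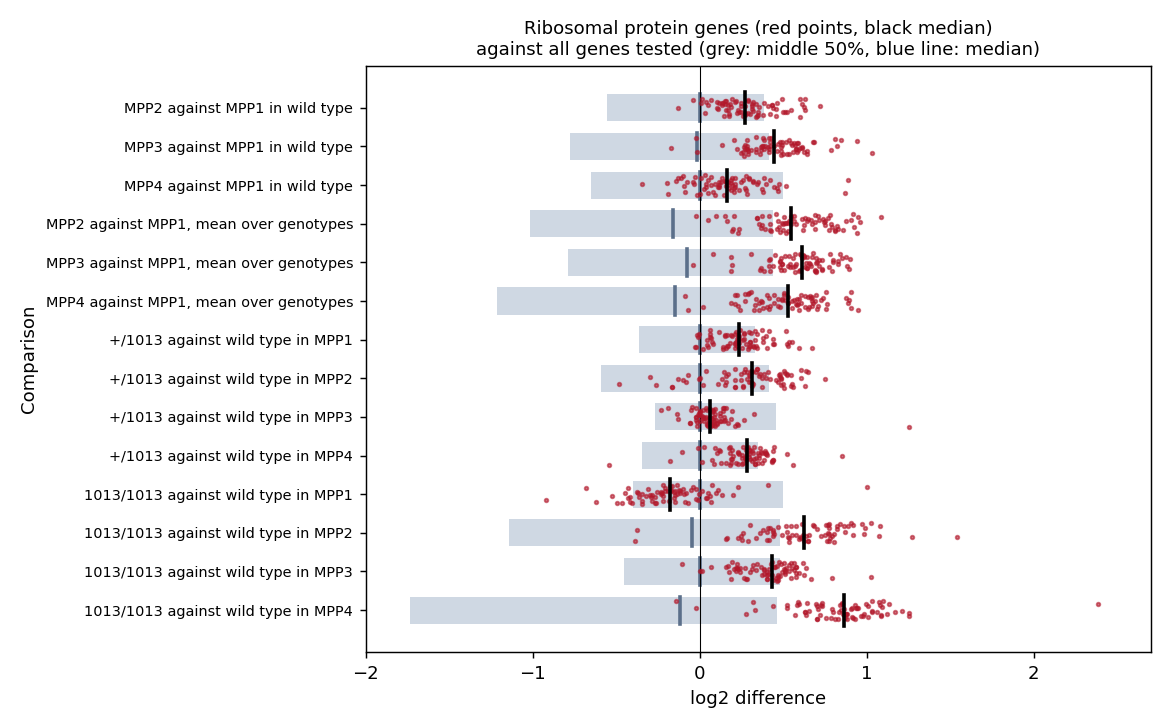
Log2 differences (x axis) in 14 comparisons (y axis): red points are the 77 ribosomal protein genes with at least 1 CPM with their median in black, the grey bar is the middle 50% of all 18676 genes tested, and the blue line their median. The red points lie mostly right of 0, save for 1013/1013 in MPP1.

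Rpsa, Rps3 and Rps13, all of the small subunit, rose in each of the 3 subsets in the mean over genotypes. Rpsa, also known as the laminin receptor, had 435, 498 and 479 CPM in wild-type MPP1, 579, 537 and 489 in +/1013, and 561 and 471 in 1013/1013. In MPP4 it had 514, 711 and 728 CPM in wild type, 736, 729 and 780 in +/1013, and 879 and 1169.5 in 1013/1013. Only the lowest MPP4 library was within the MPP1 range. The log2 difference was 0.65 ± 0.15 (SE) in MPP2, 0.59 ± 0.15 in MPP3 and 0.65 ± 0.15 in MPP4, with adjusted p of 0.0107, 0.0288 and 0.00489.

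Rps13 had 131, 129 and 103 CPM in wild-type MPP1, 215, 145 and 112 in +/1013, and 124 and 106 in 1013/1013. In MPP2 it had 116, 135 and 209 CPM in wild type, 197, 151 and 368 in +/1013, and 438 and 303 in 1013/1013. The 2 subsets overlapped in wild type, and the highest value was in a 1013/1013 library. The differences were 0.88 ± 0.22 in MPP2, 0.83 ± 0.22 in MPP3 and 0.89 ± 0.22 in MPP4 (adjusted p = 0.0175, 0.0365 and 0.00773). For Rps3 they were 0.77 ± 0.17, 0.65 ± 0.17 and 0.74 ± 0.17 (adjusted p = 0.00936, 0.037 and 0.00548). Without the 8 libraries, Rps3 was still called in MPP2 and MPP4, Rpsa in MPP3 and MPP4, and Rps13 in MPP4.

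Rpl15, a large subunit protein changed in some Diamond-Blackfan families, rose by 0.91 ± 0.19 in MPP2 and by 0.71 ± 0.19 in MPP4 (adjusted p = 0.0069 and 0.014). It had 282, 204 and 200 CPM in wild-type MPP1 and 374, 277 and 334 in wild-type MPP2. Rps2 rose by 0.74 ± 0.2 and 0.7 ± 0.2 (adjusted p = 0.0275 and 0.0221), and Rps27a, which is made as a fusion with ubiquitin, by 0.96 ± 0.27 and 0.88 ± 0.27 (adjusted p = 0.0358 and 0.0334). All of these passed in MPP2 and MPP4 and not in MPP3; the differences between subsets were not tested.

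Other genes rose in MPP2 and were not called in the other subsets. Rpl5 rose by 0.75 ± 0.14 (adjusted p = 0.0045), with 106, 92.4 and 117 CPM in wild-type MPP1 and 147, 154 and 122 in wild-type MPP2, which do not overlap. Among the others were Rplp0 (0.51 ± 0.14, adjusted p = 0.0287), Rpl9 (0.75 ± 0.21, adjusted p = 0.0314), Rpl27 (0.92 ± 0.25, adjusted p = 0.0275), Rpl34 (0.94 ± 0.27, adjusted p = 0.0358) and the paralog Rps27l (1.09 ± 0.31, adjusted p = 0.0387), which had the highest difference in MPP2 among the genes with at least 1 CPM. In MPP4 and not in the others, Rps12 (0.91 ± 0.3, adjusted p = 0.0465), Rps24 (0.67 ± 0.22, adjusted p = 0.0421) and Rpl30 (0.95 ± 0.28, adjusted p = 0.0251) rose. Here too the differences between subsets were not tested. With 1 library left out at a time, Rps12 kept its call in MPP4 in 13 of 32 fits, Rps24 in 19 and Rpl30 in 27. In MPP2, Rpl5 kept its call in all 32, Rpl9 in 24, and Rplp0, Rpl27, Rpl34 and Rps27l in 23 each. Among the same genes with at least 1 CPM, the lowest differences were near 0: Rpl4 (-0.02), Rpl7l1 (0.05) and Rpl22l1 (0.1) in MPP2, Rpl35 (-0.04), Rpl7l1 (0.08) and Rpl22l1 (0.19) in MPP3, and Rpl21 (-0.09), Rpl7l1 (-0.07) and Rpl4 (0.02) in MPP4. The highest in MPP3, Rpl39 (0.9), Rps27l (0.89) and Rps12 (0.88), did not pass, nor did Rps12 in MPP2 (0.95) or Rpl13a in MPP4 (0.91).

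**Figure D5:**
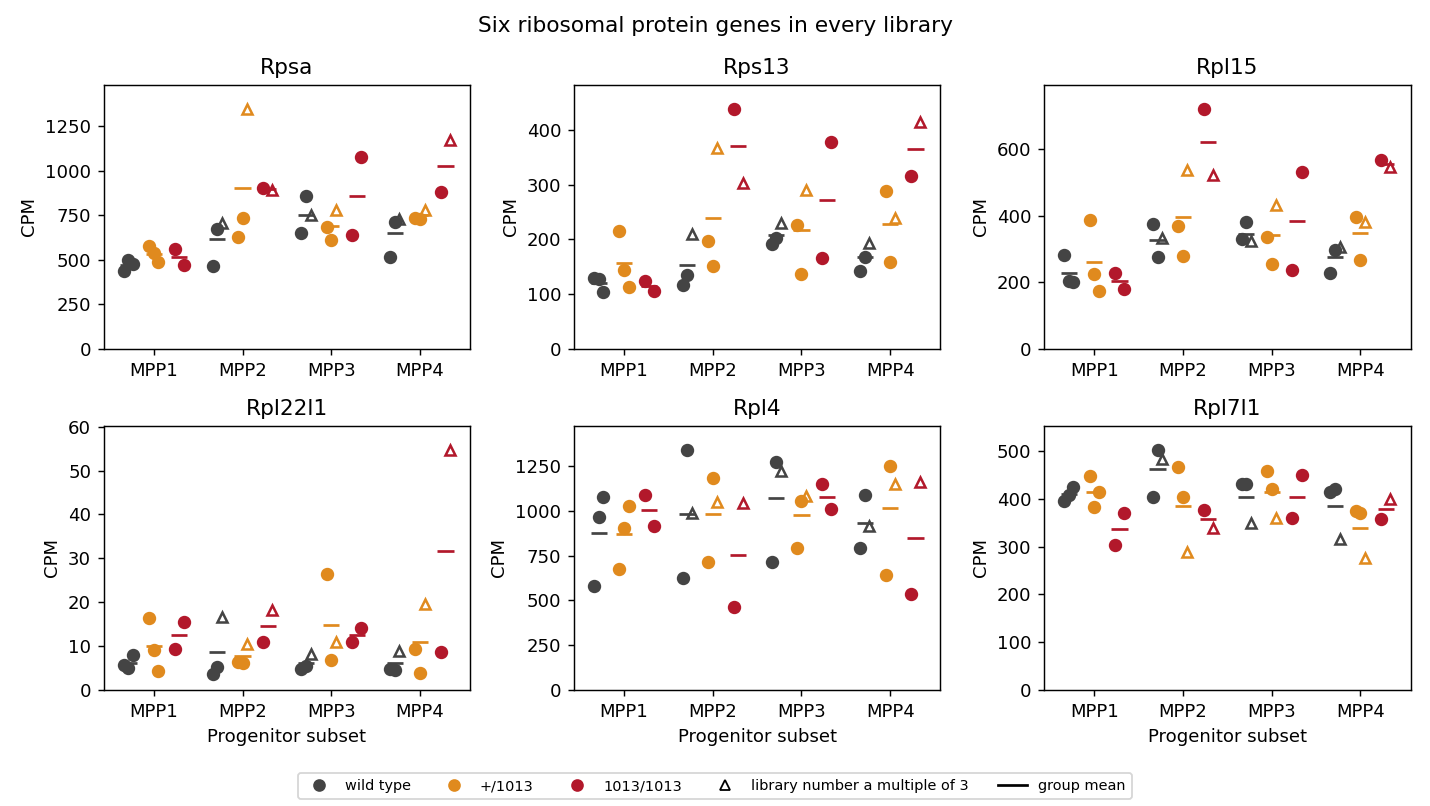
CPM (y axis, from 0) of Rpsa, Rps13, Rpl15, Rpl22l1, Rpl4 and Rpl7l1 in every library, by subset (x axis) and genotype (colour), with the group mean as a line and the 8 libraries whose number can be divided by 3 as open triangles. Rpsa, Rps13 and Rpl15 lie lower in MPP1, Rpl4 and Rpl7l1 show no such order, and 1 MPP4 1013/1013 library of Rpl22l1 stands at 54.7 CPM.

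Heterozygous libraries were next compared with wild type. Over the 4 subsets the median log2 difference of +/1013 was 0.22, against 0.01 for all genes tested, and 78 of the 81 genes were above 0. By edgeR, no gene of the 81 was called (background 0.0214%), and 5 had an unadjusted p under 0.05, against 4% of all genes. DESeq2 and limma-voom called none of the 81 either, but their shares of all genes are not given here. By subset the medians were 0.23 for MPP1, 0.31 for MPP2 (0.85 without MPP2 wild type 3 and -0.06 without MPP2 +/1013 3), 0.06 for MPP3 and 0.28 for MPP4, again with no call (background 0% in each). Every +/1013 library lay above every wild-type library for 1 gene in MPP1 (background 2.21%), 0 in MPP2 (background 2.7%), 0 in MPP3 (background 3.42%) and 8 in MPP4 (background 3.16%). Among the genes with at least 1 CPM, the highest differences were those of Rpl22l1 (0.65 ± 0.36), Rps20 (0.41 ± 0.22) and Rps14 (0.38 ± 0.22), and the lowest those of Rpl35 (-0.24 ± 0.39), Rpl7l1 (-0.1 ± 0.09) and Rpl4 (-0.01 ± 0.17). Those of Rpl35 and Rpl4 changed sign under other settings.

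The 1013/1013 libraries were set against wild type in each subset. The median log2 difference was -0.17 for MPP1, 0.63 for MPP2, 0.43 for MPP3 and 0.86 for MPP4, where all genes tested had medians of 0, -0.05, 0 and -0.12. In MPP4, 69 of the 81 genes had both 1013/1013 libraries above all 3 wild-type libraries (background 15.5%). In MPP2 there were 32 (background 11.1%), in MPP3 2 (background 8.24%) and in MPP1 2 (background 10.3%), with 12 in MPP1 that lay lower (background 9.53%). Among the 12 others in MPP4 were Rpl4, Rpl6, Rpl7l1, Rpl21, Rpl22l1, Rpl23, Rpl23a, Rpl24, Rpl35, Rpl39l and Rpl3l. The median of MPP3 was -0.35 without MPP3 1013/1013 2, and that of MPP2 was 1.2 without MPP2 wild type 3 and 1.28 without the 8 libraries.

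None of these differences passed edgeR's test after adjustment. In MPP4 the lowest adjusted p was 0.133, and 0.712% of all genes were called. There, 40 of the 81 had an unadjusted p under 0.05, against 15.8% of all genes. For MPP2, MPP3 and MPP1 the unadjusted counts were 21, 2 and 0, against 11.5%, 4.17% and 2.06% of all genes, with 0.00535%, 0% and 0.00535% of all genes called. Over the 4 subsets the median was 0.42, against -0.17 for all genes, and 40 of the 81 had an unadjusted p under 0.05, against 16.4% of all genes. None was called (background 0.685%), and the lowest adjusted p was 0.0657, that of Rps3. DESeq2 called 17 of the 81 for this mean (background 9.93% by DESeq2), 5 in MPP4 (background 11.1%) and 3 in MPP2 (background 5.88%), so that its shares in MPP4 and MPP2 lay below the background. Limma-voom called 1 for the mean, Rpl3 (background 1.89%). By edgeR, a term for the 8 libraries gave 2 calls, Rps3 and Rps13 (1.11% of all genes), and leaving them out gave 3, Rpl30 and Rps13 among them (5.61% of all genes). Leaving out single libraries gave up to 7 calls for the mean: 7 without MPP3 1013/1013 1, 5 without MPP2 +/1013 3 or MPP2 1013/1013 2, and 2 without MPP4 1013/1013 1, which also gave 1 in MPP4. Shares of all genes are not given for the fits without a single library, so their counts alone do not describe the 81 genes. The test of whether the effect in MPP4 differed from the mean effect in the other 3 subsets called none of the 81 (background 0.102%), and 0 had an unadjusted p under 0.05 against 8.22% of all genes, with a median difference of 0.58, or 0.12 without the 8 libraries. Set against +/1013, 1013/1013 had a median of 0.18 over the subsets, with 0 calls (background 0.0428%) and 0 at an unadjusted p under 0.05, against 9.11% of all genes.

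Among the genes with at least 1 CPM, those at the top of the 1013/1013 mean were Rpl22l1 (1.3 ± 0.39, adjusted p = 0.109), Rpl30 (0.8 ± 0.24, adjusted p = 0.116) and Rps13 (0.68 ± 0.19, adjusted p = 0.0827). Rpl30 had 15.9, 22.2 and 23.8 CPM in wild-type MPP4 and 47 and 35.8 in 1013/1013, and 7.13, 10.1 and 23.7 against 43.4 and 35.8 in MPP2. Neither pair of groups overlapped. In MPP2 alone the highest differences were those of Rpl30 (1.54 ± 0.49) and Rps13 (1.27 ± 0.38), and in MPP4 those of Rpl22l1 (2.38 ± 0.8), Rpl39 (1.25 ± 0.51) and Rps20 (1.25 ± 0.47). Rpl7l1 (-0.17 ± 0.1), Rpl4 (-0.08 ± 0.19) and Rps29 (0.15 ± 0.34) were lowest in the mean. The lowest in MPP2 were Rpl4 (-0.39 ± 0.39) and Rpl7l1 (-0.37 ± 0.2), and in MPP4 Rpl4 (-0.14 ± 0.39), Rpl7l1 (-0.02 ± 0.2) and Rpl35 (0.28 ± 0.86).

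Other values moved in the same libraries. The MPP4 1013/1013 libraries had 13093 and 11693 genes with at least 5 counts against 14566, 14112 and 13972 in wild type. That number depends on the library total, which was 19932903 and 29802962 against 31925711, 26501473 and 28819869. Mitochondrially encoded counts were 1.35% and 1.63% against 0.366%, 0.676% and 1.78%. All 8 neutrophil genes had lower fitted values, with a summed share of 0.00164% and 0.00302% against 0.000946%, 0.00105% and 0.281%. The third wild-type library, which held that 0.281%, had a ribosomal protein share of 2.38%, between those of the other wild-type libraries. The part of these values in the result was not tested. Other coding genes of at most 1054 bases and at least 10 CPM were also read. The 81 genes had a median length of 632 bases. The median difference of these 3373 others was 0.09 for 1013/1013 in MPP4, against 0.86 for the 81 genes. For MPP2 against MPP1 over genotypes it was 0.08 against 0.54. What part length or level has in this was not tested.

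The genes of blood disease stood among the others. Rps19 had 599, 582 and 499 CPM in wild-type MPP4 and 1048 and 1237 in 1013/1013, a log2 difference of 1.03 ± 0.37 (adjusted p = 0.177). Rps14 had 1043, 786 and 838 CPM against 1609.7 and 2292, a difference of 1.13 ± 0.49 (adjusted p = 0.256). Rpl11 had 71.4, 73.6 and 68.3 CPM against 111 and 150, a difference of 0.88 ± 0.39 (adjusted p = 0.276). Rpl5 had 81.5, 143 and 139 CPM against 152 and 153, a difference of 0.33 ± 0.26 (adjusted p = 0.516). In all 4 the groups did not overlap, as in 69 of the 81 genes and 15.5% of all genes tested. Rpl5 had the smallest difference of the 4. Rps6 had 269, 316 and 267 CPM against 352 and 526.03 (0.63 ± 0.26, adjusted p = 0.238). Of the stalk genes, Rplp0 differed by 0.73 ± 0.25, Rplp1 by 0.98 ± 0.47 and Rplp2 by 0.88 ± 0.54, none of them called.

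The paralogs and their parents differed in level and in how far they varied. Rps27l, a relative, p53-inducible in human cells, of Rps27 that differs from it at its start, had 492 CPM per kb against 140 for Rps27. In MPP2 against MPP1 it rose by 1.09 ± 0.31, and Rps27 differed by 0.5 ± 0.3 and was not called. Rpl22l1, which in the mouse can stand in for Rpl22, had 4.86, 4.49 and 8.85 CPM in wild-type MPP4, 9.44, 3.82 and 19.6 in +/1013, and 8.6 and 54.7 in 1013/1013. One 1013/1013 library lay within the wild-type range and the other was the highest of all 32. Without that library the difference in MPP4 was 0.51 in place of 2.38. Rpl22 had 142, 142 and 156 CPM against 182 and 257 in 1013/1013. Rpl7l1 had 150 CPM per kb against 989 for Rpl7, which had a slope of 0.76 on the library shift. Rpl3l (0.25 CPM per kb against 846 for Rpl3) and Rpl39l (0.61 against 224 for Rpl39) were at the edge of detection, with counts in part of the libraries only.

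Genes of the same pathway outside the rule were read from lists chosen with earlier results of these data known. In the comparisons of MPP2, MPP3 and MPP4 with MPP1, 5.01%, 2.36% and 7.59% of all genes were called higher and 1.72%, 0.75% and 7.12% lower, and each list's counts stand beside these. All 7 ribosome components listed, 1 of which (Rpl41) is also among the 81, were above 0 in each comparison of subsets averaged over genotypes, and Rack1, the scaffold on the small subunit, rose in each (0.9 ± 0.17 in MPP2, 0.62 ± 0.17 in MPP3 and 0.67 ± 0.17 in MPP4, adjusted p = 0.00401, 0.043 and 0.00899). Rpl36al rose in MPP2 (0.83 ± 0.22) and MPP4 (0.65 ± 0.22), with adjusted p of 0.0256 and 0.0467. Of 15 other translation genes with a pyrimidine tract, 4 rose in MPP2, 1 in MPP3 and 4 in MPP4, and 1 fell in MPP4. The elongation factor gene Eef1g rose in all 3 (0.52 ± 0.16, 0.6 ± 0.16 and 0.55 ± 0.16, adjusted p = 0.0435, 0.0365 and 0.0192), and Pabpc1, the poly(A)-binding protein gene, fell by 1.18 in MPP4 (SE 0.36, adjusted p = 0.0306). The others that rose were Eef1b2, Tpt1 and Eif3h, in MPP2 and in MPP4.

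The regulators and the assembly factors held genes that rose and genes that fell. Of 16 regulators, Rheb, the activator of mTOR, rose in MPP2 (0.7 ± 0.2) and MPP4 (0.88 ± 0.2), with adjusted p of 0.0379 and 0.00502, and so did the cap-binding factor gene Eif4e (0.68 ± 0.13 and 0.5 ± 0.13, adjusted p = 0.0047 and 0.0143). Mycn fell in MPP4 by 1.64 (SE 0.46, adjusted p = 0.02), and the list's median was -0.4 in MPP2, -0.08 in MPP3 and -0.23 in MPP4. Of 31 assembly factors, 5 rose and 1 fell in MPP2, 3 rose in MPP3, and 5 rose and 3 fell in MPP4. Nip7, of large subunit assembly, rose in all 3 (0.91 ± 0.15, 0.74 ± 0.15 and 0.78 ± 0.15, adjusted p = 0.0021, 0.006 and 0.00103), and so did the snoRNP gene Nop10 (0.98 ± 0.24, 0.88 ± 0.24 and 0.86 ± 0.24, adjusted p = 0.0145, 0.0416 and 0.0165). The nucleolin gene Ncl fell by 1.59 in MPP4 (SE 0.45, adjusted p = 0.0199), as did Ubtf, a factor of ribosomal RNA transcription, by 2.53 (SE 0.59, adjusted p = 0.00586). The list's medians were -0.11, 0.06 and -0.19. In 1013/1013 no gene of these 4 lists was called over the 4 subsets (background 0.685%).

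The mitochondrial ribosome is built from another set of genes. Of 77 tested genes of its proteins, 40 rose in MPP2 (background 5.01%), 11 in MPP3 (background 2.36%) and 28 in MPP4 (background 7.59%), with medians of 0.59, 0.5 and 0.5 beside 0.54, 0.61 and 0.53 for the cytosolic genes. In 1013/1013 its median was 0.29 over the 4 subsets and 0.71 in MPP4, beside 0.42 and 0.86, with no call. These comparisons use the same libraries for both sets of genes. Named pseudogenes of the cytosolic genes, 103 of them tested, had medians of 0.65, 0.58 and 0.55 in the 3 comparisons of subsets, and 0.74 for 1013/1013 in MPP4.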

How the data were processed

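The authors deposited whole-number counts per gene for 32 libraries, which the file headers call raw; per the labels, each came from 3000 sorted cells, 350 to 1000 pg of RNA and 12 cycles of cDNA amplification. The submitters' processing notes name STAR, HTSeq and mm10; versions and the strand setting are not given in the sources used here, so a gene and an overlapping gene on the other strand (13 of the 81) cannot be told apart. The deposited median transcript length, in bases per the file headers, gave levels per kilobase. Another 64 per-sample columns were not used.

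The model was edgeR's (4.0.16, R 4.3.3): filterByExpr kept 18676 genes, all 81 members among them, scaling was TMM, 1 coefficient was fitted per group, and trended dispersions went into glmQLFit and glmQLFTest. P-values were adjusted over all genes tested, with a threshold of 0.05. DESeq2 1.42.0 and limma 3.58.1 (voom) were alternatives. The main fit was also run on simulated data, with changes planted in genes of at least 10 CPM. For MPP4 against MPP1 over genotypes, 7.46% of planted 1.5-fold, 32.8% of 2-fold and 86.4% of 4-fold changes were called. Of 86 calls, 2 were false. A gene that was not called is therefore not shown to be unchanged. Intervals are SDs between libraries or SEs of the fit; the reads carry no molecular identifiers.

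The labels do not say that libraries came from separate animals, so p-values measure the spread between these libraries. Same-numbered wild-type and +/1013 libraries of a subset deviated together in 12 of 12 pairs (correlations 0.115 to 0.534). Of 24 differently numbered pairs, 3 had a correlation above 0.1, the highest 0.338. Same-numbered pairs with 1013/1013 had a median of 0.0116, with 5 of 16 above 0.1. Across subsets, same-numbered libraries of the same genotype had a median correlation of 0.149, with 30 of 48 above 0.1. For differently numbered ones it was -0.082, with 10 of 84 above 0.1. Such pairs also stand in the comparisons of subsets with MPP1. In MPP2 to MPP4, replicate 3 of wild type and of +/1013 always has a library number that can be divided by 3. The part of this in the correlations was not tested, and the main model held no term for pairs. With the replicate block, +/1013 gave no call either. Members and lists were chosen with earlier results of these data known. Other alternatives were RLE factors, TMM without the 81 genes, no filter, a replicate block, terms for or omission of libraries by number, and leaving out each library. Genes named are all called members, the 3 highest and lowest of at least 1 CPM per comparison described, the 5 highest and lowest per kilobase, paralogs with parents, disease and stalk genes, and called genes of other lists. Some genes that meet this rule are not reported here; counts and medians include them. Promoters were RefSeq's on GRCm38.p6.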

Additional observations from a re-analysis of the deposited data

Results flagged for a closer look

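Among the 8 MPP1 libraries, MPP1 +/1013 1 stood apart with 3.33% of its counts in ribosomal protein genes, while the others lay between 2% and 2.55%. It was the highest library and its gap to the next was larger than the 95% limit of Dixon's test for a single outlier, a rule that marks some groups by chance alone. The same library had 12473 genes with at least 5 counts against 13553 to 15019 in the other MPP1 libraries. That number depends on the library total, which was 14411262 counts here and 18349738 to 28878325 in the other MPP1 libraries. Without MPP1 +/1013 1, 30, 26 and 32 of the 81 genes were called in MPP2, MPP3 and MPP4 against MPP1. Of all genes, 6.95%, 4.05% and 9.18% were called higher in the same fit.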

How the results depend on the processing

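Of the medians, counts and summed levels, 329 were within the spread or within 1.5 times of their value under alternatives other than leaving out a library, and 25 moved. A median was taken as unmoved if it changed by less than 0.44, the SD of the library shift within groups. Many of the medians are smaller than that, and counts that stayed at 0 were also taken as unmoved. The tally therefore does not show that the medians or counts held. For MPP2, MPP3 and MPP4 against MPP1 over genotypes, DESeq2 called 28, 24 and 21 of the genes (16.4%, 9.92% and 24.5% of all genes), limma-voom 11 in MPP3 and 25 in MPP4 (8.36% and 23.1% of all genes), RLE size factors 2 in MPP3, and the replicate block 8 in MPP3; the block moved no other count of calls by over 1.5 times. A term for the 8 libraries whose number can be divided by 3 gave 7 in MPP2 and 5 in MPP4, leaving them out 4, 1 and 4, while a term for those 5 with numbers of at least 46 gave 8 in MPP2. For 1013/1013 against wild type, DESeq2 called 17 over the subsets, 3 in MPP2 and 5 in MPP4 (9.93%, 5.88% and 11.1% of all genes), limma-voom 1 over the subsets (1.89%), the term for the 8 libraries 2, and leaving them out 3 over the subsets and 2 in MPP2. Without the 8 the median was -0.20 for wild-type MPP2 against MPP1, 1.28 for 1013/1013 in MPP2, and 0.12 for the test of MPP4 against the other subsets. TMM-scaled CPM put the summed level at 1.99% in MPP1 1013/1013 and 4.03% in MPP2 1013/1013. Leaving out 1 library at a time gave 3 to 30, 0 to 26 and 3 to 32 calls for MPP2, MPP3 and MPP4 against MPP1, 0 to 7 for 1013/1013 over the subsets and 0 to 1 in MPP4. Where no share of all genes in the same fit is given, a count of calls alone does not describe the 81 genes. With 1 library left out at a time, the medians ranged from -0.20 to 0.52 for wild-type MPP2 against MPP1, -0.063 to 0.85 for +/1013 in MPP2, 0.39 to 1.2 for 1013/1013 in MPP2 and -0.35 to 0.85 in MPP3. Values near 0 that were never called changed sign. In MPP2 against MPP1, Rpl4 was 0.10 with the term from 46 on, Rpl7l1 was -0.0045 with RLE and -0.0045 with DESeq2, and Rpl22l1 was -0.0096 with the block, -0.43 with the term for the 8 and -0.44 without them. In MPP3, Rpl35 was 0.11 with limma-voom and Rpl22l1 -0.012 with the term. In MPP4, Rpl7l1 was 0.023 with the term, and Rpl4 was -0.038 with RLE, -0.038 with DESeq2, -0.019 with limma-voom, -0.024 with the block, -0.13 with the term and -0.23 without the 8. For +/1013, Rpl35 was 0.15 without the 8, and Rpl4 was 0.0014 with TMM computed without the 81 genes, 0.027 with limma-voom and 0.0022 with the block. For 1013/1013, Rpl4 was 0.031 over the subsets with the block, and in MPP4 Rpl7l1 was 0.038 with TMM computed without the 81 genes, 0.00064 with limma-voom and 0.043 with the term, and Rpl35 -0.056 with limma-voom. Leaving out 1 library at a time also turned signs. In MPP2 against MPP1, Rpl4 ranged from -0.25 to 0.14, Rpl7l1 from -0.00043 to 0.11 and Rpl22l1 from -0.21 to 0.29. In MPP3, Rpl35 ranged from -0.20 to 0.27 and Rpl22l1 from -0.056 to 0.37. In MPP4, Rpl21 ranged from -0.23 to 0.016 and Rpl4 from -0.19 to 0.17. For +/1013, Rpl35 ranged from -0.47 to 0.13 and Rpl4 from -0.067 to 0.066. For 1013/1013 over the subsets, Rpl4 ranged from -0.26 to 0.029 and Rps29 from -0.11 to 0.40. In MPP2, Rpl4 ranged from -1.08 to 0.088. In MPP4, Rpl4 ranged from -0.79 to 0.30, Rpl7l1 from -0.14 to 0.050 and Rpl35 from -0.91 to 0.93. The causes of these changes were not tested.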
